A study of Mus musculus with 6 samples.

Results

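Voltage-gated calcium channel subunits were measured in hippocampal RNA of mice with and without inhibitor-1. The set was drawn up as 10 genes: the pore-forming alpha1 subunits Cacna1a, Cacna1b, Cacna1c, Cacna1d, Cacna1e and Cacna1g, the cytoplasmic beta subunits Cacnb2, Cacnb3 and Cacnb4, and the extracellular alpha2delta subunit Cacna2d1. Every probe set that the platform annotation assigns to exactly 1 of these symbols was taken, which gave 25 of the 45101 probe sets on the array and covered 9 of the 10 genes. The annotation used here assigns no probe set to Cacnb3 alone, so Cacnb3 was not analysed here. Of the 25 probe sets, 23 were bright enough to be tested, at least 1 for each of the 9 genes. Among 26999 tested probe sets 0.0111% passed the threshold (3, all lower in knockout), and of the 23 subunit probe sets 0 did. The lowest unadjusted p of a subunit probe set was 0.0615 (limma). Of all tested probe sets, 4.38% had an unadjusted p under 0.05. At that share few of 23 probe sets would have such a p, so finding none is not a result particular to the subunits.

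The data are 6 arrays of total RNA from mouse hippocampus, 3 labelled as wild-type mice and 3 as inhibitor-1 knockout mice. Inhibitor-1, encoded by Ppp1r1a, blocks protein phosphatase 1 once protein kinase A has phosphorylated it. The labels give genotype, tissue and a replicate number from 1 to 3, and nothing on strain, age, sex, the targeted allele, pooling or separate animals, so a p-value here reflects array-to-array spread that could be purely technical. The question put to the data is whether loss of inhibitor-1 goes with other levels of the channel transcripts.

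Voltage-gated calcium channels open on depolarization and let calcium into the cell. The alpha1 subunit forms the pore and sets the current type: Cacna1a encodes the P/Q-type, Cacna1b the N-type and Cacna1e the R-type pore, which serve transmitter release and dendritic signals, Cacna1c and Cacna1d encode L-type pores that couple activity to gene expression, and Cacna1g encodes a T-type pore that opens at low voltage. Beta subunits bind the high-voltage-activated pores from the inside, aid their delivery to the membrane and tune gating. Alpha2delta subunits raise the number of channels at the surface, and the product of Cacna2d1 is a target of gabapentin.

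The promoter windows below come from RefSeq (build GRCm38.p6) and span 250 bases before to 50 bases after an annotated start. Protein kinase A also phosphorylates CREB, a factor that binds the cAMP response element TGACGTCA, so the windows were searched for that element and for its shorter form TGACG, on both strands; every TGACGTCA also contains TGACG. The table held 15 windows for 8 of the 10 genes, 2 of them for Cacnb3. TGACGTCA was in 0 of the 15 windows and in 1.79% of 32851 windows of the same length, and TGACG was in 4 of the 15 windows and in 20.8% of all. The 4 windows with TGACG are printed because they belong to 4 different subunit genes and span the roles of pore, beta and alpha2delta subunit; each reads 5′ to 3′ on the gene's strand, and the capitals mark TGACG. A match is a string of letters in the window and does not show binding.
Cacna1b, chr2:24763103-24763402, minus strand: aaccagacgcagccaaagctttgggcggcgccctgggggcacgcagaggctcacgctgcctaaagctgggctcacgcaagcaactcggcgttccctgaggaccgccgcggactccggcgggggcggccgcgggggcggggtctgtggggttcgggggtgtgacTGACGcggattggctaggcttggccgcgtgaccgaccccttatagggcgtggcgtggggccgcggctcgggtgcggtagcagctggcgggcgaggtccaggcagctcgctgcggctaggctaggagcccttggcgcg
Cacna1c, chr6:119196360-119196659, minus strand: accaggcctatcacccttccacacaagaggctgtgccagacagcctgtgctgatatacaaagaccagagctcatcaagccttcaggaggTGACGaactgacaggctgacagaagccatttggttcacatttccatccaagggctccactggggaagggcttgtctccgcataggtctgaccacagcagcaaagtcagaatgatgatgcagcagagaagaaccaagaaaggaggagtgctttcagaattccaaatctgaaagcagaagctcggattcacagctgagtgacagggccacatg
Cacnb2, chr2:14823842-14824141, plus strand: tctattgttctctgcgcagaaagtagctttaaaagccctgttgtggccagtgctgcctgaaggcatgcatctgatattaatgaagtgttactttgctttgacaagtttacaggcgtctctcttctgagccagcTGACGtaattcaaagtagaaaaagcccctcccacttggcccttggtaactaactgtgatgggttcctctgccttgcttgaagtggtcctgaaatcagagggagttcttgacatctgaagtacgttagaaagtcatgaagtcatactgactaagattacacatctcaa
Cacna2d1, chr5:15934441-15934740, plus strand: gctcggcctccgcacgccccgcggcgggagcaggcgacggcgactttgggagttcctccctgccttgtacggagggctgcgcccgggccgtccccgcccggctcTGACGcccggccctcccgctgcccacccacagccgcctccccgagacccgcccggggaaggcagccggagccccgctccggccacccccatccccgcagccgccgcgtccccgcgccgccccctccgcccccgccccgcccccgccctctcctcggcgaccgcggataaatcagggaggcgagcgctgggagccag
The first match starts at position -87 from the start site in Cacna1b, -161 in Cacna1c, -117 in Cacnb2 and -146 in Cacna2d1. The windows differ in composition: GC content is 72.3% for Cacna1b, higher still for Cacna2d1, and 51.3% for Cacna1c, against a median of 52.7% over all windows. The other windows of Cacna1c and Cacnb2, at other annotated starts, hold no TGACG, and neither do those of Cacna1d, Cacna1e, Cacnb3 and Cacnb4. The brightest probe sets of the 4 genes printed had log2 changes of 0.02 for Cacna1b, -0.07 for Cacna1c, -0.08 for Cacnb2 and 0.02 for Cacna2d1. Those of Cacna1d, Cacna1e and Cacnb4, whose windows lack the letters, had 0.33, 0.08 and 0.23. The other tested probe sets ran from -0.06 to 0.45 in the printed genes and from -0.09 to 0.14 in Cacna1d, Cacna1e and Cacnb4. A difference between genes with and without the letters was not tested. No member of either group passed the threshold.

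The targeted gene fits its label, and markers of the labelled tissue were present. Ppp1r1a had intensities of 9061, 8370 and 10345 on the wild-type arrays and 272, 249 and 347 on the knockout arrays, and fell by 4.93 (log2 units, SE 0.18) with a limma adjusted p of 3.58e-07. The other probe sets past the threshold belong to Slc38a1, which encodes a glutamine transporter (it fell by 1.27), and Pou6f1, which encodes a POU-domain transcription factor (it fell by 1.00). Neither gene encodes a calcium channel subunit. Where Slc38a1 and Pou6f1 lie relative to Ppp1r1a was not examined here. All 12 markers of hippocampal neurons were tested and lay at or above the 64.1 percentile of each array, and their mean log2 level was 12.86 to 12.91 on the wild-type arrays and 12.82 to 12.91 on the knockout arrays. Markers of bordering tissue were less even: 10 of 11 choroid plexus and ependymal markers were higher on average in knockout (mean log2 level of the list 11.03 to 12.07 for wild type, 11.76 to 12.61 for knockout), as were 10 of 10 meningeal and fibroblast markers (10.79 to 10.97 and 10.86 to 11.46). Cacna1g is also abundant in thalamus, and the 8 thalamic and habenular markers ran from 10.97 to 11.13 in wild type and from 10.78 to 11.11 in knockout. In such bulk RNA, fewer cells of a type and less RNA per cell cannot be told apart.

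Values below are deposited probe set intensities, given for replicates 1, 2 and 3 in that order, and changes are knockout minus wild type on the scale log2(intensity + 16), with 95% intervals from limma. Probe sets differ in how well they bind, so no probe set's level was set against another's. Probe sets ending in _x_at or _s_at may bind more than one transcript.

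**Figure D1:**
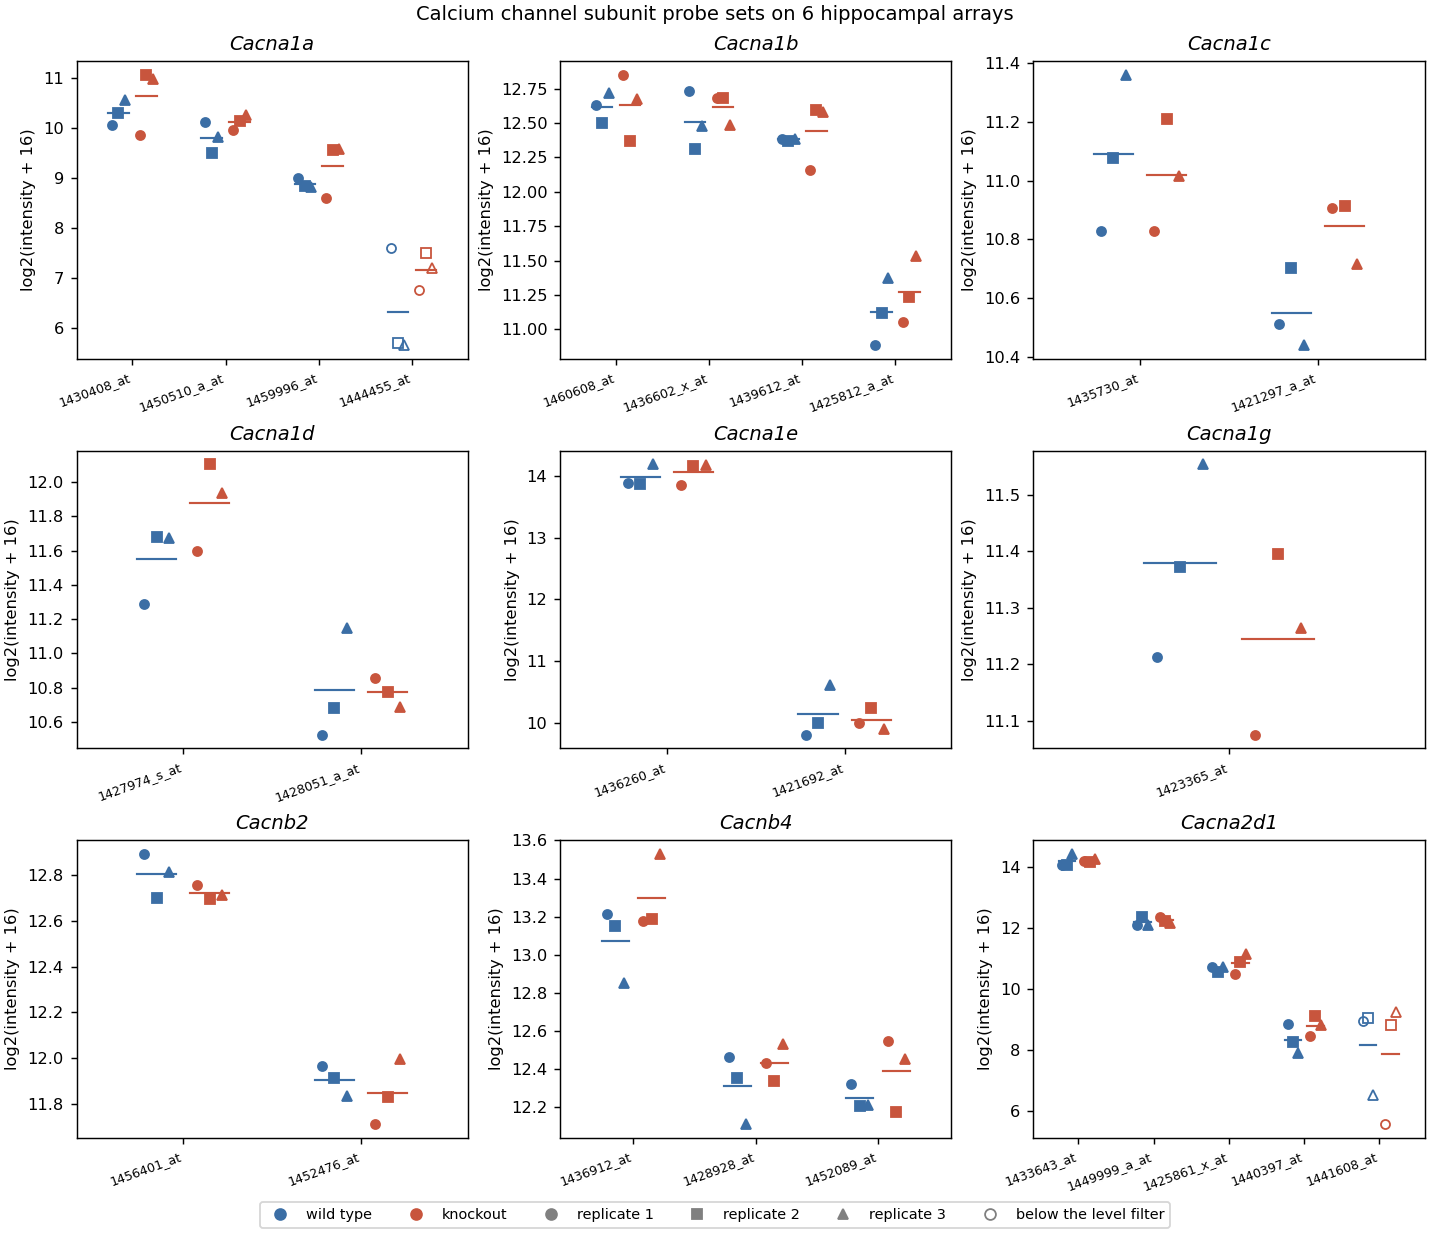
Each panel shows 1 subunit gene; the y axis is log2(intensity + 16), the x axis lists its probe sets from bright to dim, points are the 6 arrays (shape for the replicate number) and bars are group means. Groups overlap at every tested probe set except 1421297_a_at of Cacna1c, and the 2 probe sets drawn hollow lay below the level filter.

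The P/Q-type pore gene Cacna1a had changes of 0.32 to 0.36 at its 3 tested probe sets, and none passed. Its brightest, 1430408_at, read 1056, 1240 and 1485 in wild type and 907, 2126 and 2010 in knockout. Knockout replicates 2 and 3 were above every wild-type array and knockout replicate 1 was below every one, so the groups overlapped. The change was 0.33 (interval -0.33 to 0.99, limma adjusted p = 0.988). Knockout replicate 1 was again below and knockout replicates 2 and 3 above every wild-type array at 1459996_at, with 496, 439 and 434 in wild type and 371, 737 and 751 in knockout, a change of 0.36 (interval -0.40 to 1.13). At 1450510_a_at it read 1089, 705 and 884 in wild type and 981, 1117 and 1209 in knockout, a change of 0.32 (interval -0.20 to 0.83). Here too knockout replicates 2 and 3 were above every wild-type array, and knockout replicate 1 lay below wild-type replicate 1 only. Without knockout replicate 1 the changes at 1430408_at and 1459996_at were 0.72 and 0.69, and the lowest limma adjusted p of any subunit probe set with 1 array left out, 0.242, belongs to 1430408_at in that fit. Without knockout replicate 2 they were 0.11 and 0.21, and without knockout replicate 3 they were 0.15 and 0.20. Each knockout array thus moved both values by more than 1.5 times. The fourth Cacna1a probe set, 1444455_at, was not tested: it read 179, 36 and 35 in wild type and 92, 165 and 131 in knockout, near the bottom of the arrays (7.05 to 26.2 percentile).

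The N-type pore gene Cacna1b was measured by 4 probe sets, each with a change above 0 and close to it. Its brightest, 1460608_at, read 6325, 5772 and 6727 in wild type and 7379, 5271 and 6526 in knockout, so that the highest and the lowest array were both knockout. The change was 0.02 (interval -0.26 to 0.29, limma adjusted p = 0.998). The wild-type arrays were nearly equal at 1439612_at, at 5339, 5273 and 5343, whereas the knockout arrays spread around them at 4546, 6161 and 6123. That probe set changed by 0.06 (interval -0.21 to 0.33). The others, 1436602_x_at and 1425812_a_at, had changes of 0.10 (interval -0.16 to 0.36) and 0.15 (interval -0.24 to 0.53). Over the 4 probe sets of Cacna1b the interval bound farthest from 0 was 0.53.

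The R-type pore gene Cacna1e had a bright and a dim probe set. The bright one, 1436260_at, lay above the 94.5 percentile on every array and read 15237, 14946 and 18729 in wild type and 14829, 18438 and 18516 in knockout. Knockout replicate 1 was the lowest array and wild-type replicate 3 the highest. Its change was 0.08 (interval -0.16 to 0.32, limma adjusted p = 0.991). The dim one, 1421692_at, ran from 879 to 1552 on wild-type arrays and from 939 to 1199 on knockout arrays and had a change of -0.09 (interval -0.64 to 0.46).

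The L-type pore genes gave the lowest unadjusted p among the pore genes, each at 1 of its 2 probe sets. Cacna1d, whose channels open at more negative voltages than those of Cacna1c, read 2489, 3268 and 3247 in wild type and 3079, 4388 and 3907 in knockout at 1427974_s_at. Knockout replicates 2 and 3 were above all wild-type arrays and knockout replicate 1 lay among them. The change was 0.33 (interval -0.02 to 0.68, limma unadjusted p = 0.0615, adjusted p = 0.988). At 1428051_a_at the knockout arrays, 1835, 1735 and 1632, lay inside the wild-type range of 1457 to 2248, with a change of -0.01 (interval -0.42 to 0.40).

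Cacna1c, the main L-type pore gene of the forebrain, had the only tested subunit probe set whose groups did not overlap. At 1421297_a_at it read 1444, 1651 and 1375 in wild type and 1905, 1911 and 1667 in knockout, so knockout replicate 3 was just above wild-type replicate 2. Its change was 0.29 (interval -0.07 to 0.65, limma unadjusted p = 0.101, adjusted p = 0.988). Of all tested probe sets, 9.89% had groups that did not overlap, and 1 of 23 is not above that share. The brighter probe set of Cacna1c, 1435730_at, read 1804, 2144 and 2612 in wild type and 1801.5, 2352 and 2055 in knockout, and had a change of -0.07 (interval -0.46 to 0.31).

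The T-type pore gene Cacna1g, with a single probe set, was the only pore gene with no change above 0. At 1423365_at it read 2356.5, 2633 and 2990.5 in wild type and 2142, 2679 and 2445 in knockout. The lowest array was a knockout one and the highest a wild-type one, and the rest interleaved. The change was -0.13 (interval -0.46 to 0.19, limma adjusted p = 0.988).

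**Figure D2:**
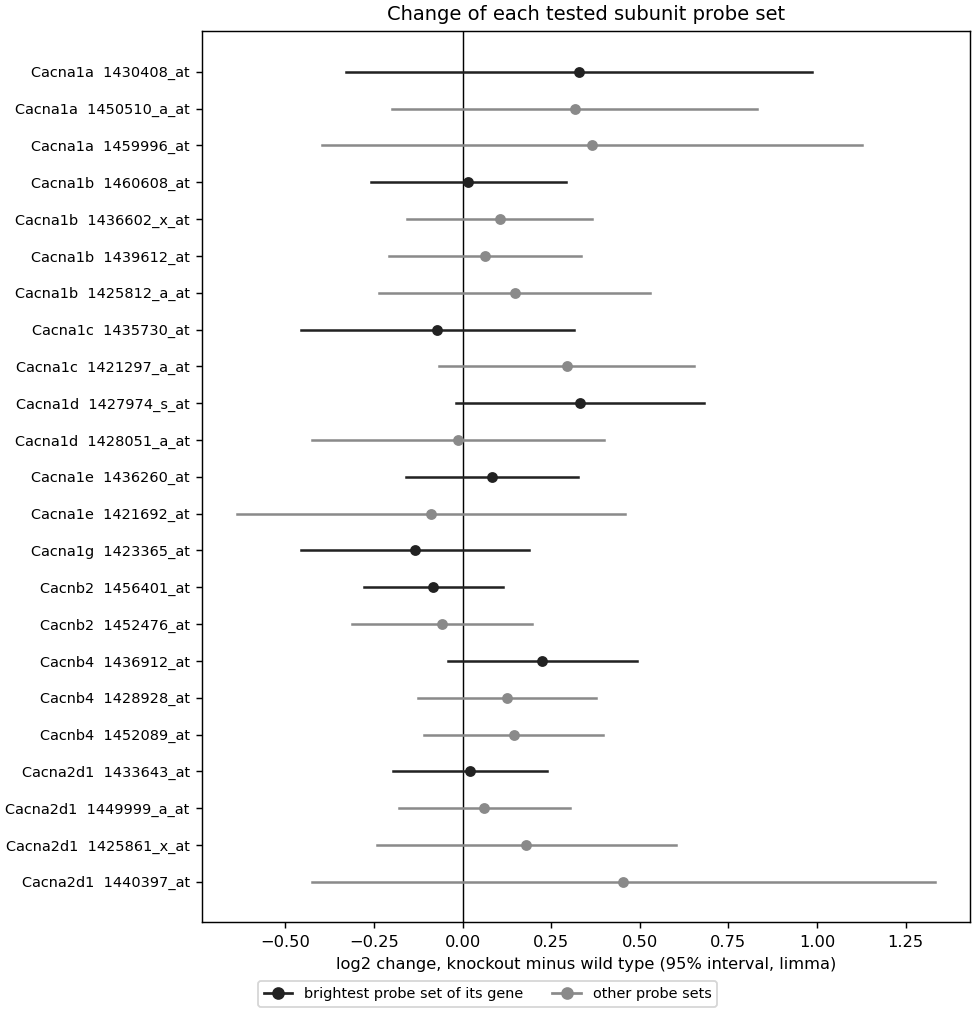
Points are the log2 changes (knockout minus wild type) of the 23 tested subunit probe sets and lines their 95% intervals from limma, dark for the brightest probe set of each gene. Every interval includes 0, and the widest belong to the dimmer probe sets of Cacna2d1 and Cacna1a.

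The beta subunit genes went different ways without passing. Both probe sets of Cacnb2, whose product slows inactivation of the channels it joins in some splice forms, had changes below 0. The brighter, 1456401_at, read 7591, 6644 and 7192 in wild type and 6909, 6615 and 6690 in knockout. Knockout arrays were close together near the low end of the wild-type range. The change was -0.08 (SE 0.09, interval -0.28 to 0.11, limma adjusted p = 0.988), with the smallest SE of any subunit probe set. The other, 1452476_at, changed by -0.06 (interval -0.31 to 0.20).

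All 3 probe sets of Cacnb4, the beta subunit gene disrupted in the epileptic lethargic mouse, had changes above 0. The brightest, 1436912_at, read 9471, 9093 and 7383 in wild type and 9246, 9307 and 11812 in knockout. Most of that difference came from a low wild-type replicate 3 and a high knockout replicate 3, and the other 4 arrays lay within 9093 to 9471. The change was 0.23 (interval -0.04 to 0.49, limma unadjusted p = 0.0909, adjusted p = 0.988). Leaving out wild-type replicate 3 gave 0.12, and leaving out knockout replicate 3 gave 0.11. At 1428928_at the arrays ran from 4403 to 5629 in wild type and from 5154 to 5904 in knockout (change 0.13, interval -0.13 to 0.38). At 1452089_at the wild-type arrays read 5108, 4699.5 and 4720.5, and the knockout arrays 5970, 4601 and 5580 (change 0.14, interval -0.11 to 0.40). Knockout replicate 2 was the lowest knockout array at 1428928_at and 1452089_at, and knockout replicate 1 was the lowest at 1436912_at.

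The alpha2delta gene Cacna2d1 had 5 probe sets, of which 4 were tested, with smaller changes at the brighter ones. The brightest, 1433643_at, at the 95.5 to 96.6 percentile of its arrays, read 17037, 16967 and 22029 in wild type and 18645, 18409 and 19384 in knockout. All knockout arrays lay inside the wild-type range. The change was 0.02 (interval -0.20 to 0.24, limma adjusted p = 0.998). At 1449999_a_at it was 0.06 (interval -0.18 to 0.30) and at 1425861_x_at 0.18 (interval -0.24 to 0.60). The highest change of any subunit probe set, 0.45 at 1440397_at, came with the widest interval, -0.43 to 1.33. That probe set is dim: it read 448, 288 and 223 in wild type and 333, 529 and 438 in knockout. The untested 1441608_at read 471, 506 and 76 in wild type and 31, 432 and 586 in knockout, so its arrays within a group differed by more than any difference between groups.

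Over the 23 probe sets the changes ran from -0.13 to 0.45, 17 were above 0 and 6 below, and the median was 0.10, beside a median of 0.004 and 50.9% above 0 over all tested probe sets. With the brightest probe set of each gene alone, 6 of 9 were above 0 and the median was 0.02. Probe sets of 1 gene share a target and are not independent of each other. For 7 of the 9 brightest probe sets the whole interval lay within 0.5 in size on the log2 scale; the exceptions were Cacna1a and Cacna1d. Over all 23, 14 intervals lay within 0.5 and 21 within 1. The median SE was 0.15, against 0.18 over all tested probe sets.

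The arrays did not part by genotype. Each probe set's level was taken relative to its mean over the 6 arrays, and the median over the 23 probe sets was -0.06, -0.10 and -0.03 on wild-type replicates 1, 2 and 3, and -0.09, 0.12 and 0.13 on knockout replicates 1, 2 and 3. On knockout replicates 2 and 3, 16 of 23 probe sets were above their mean each, and on knockout replicate 1 only 7 were. Over all tested probe sets the same median was lowest on knockout replicate 1, at -0.01, and highest on knockout replicates 2 and 3, at 0.02 each. The median intensity of the arrays was lowest on replicate 1 in both groups. It was 542, 664 and 666 on knockout replicates 1, 2 and 3, and 574, 621 and 642 on wild-type replicates 1, 2 and 3. With each array centred on its median, the median subunit change was 0.09 in place of 0.10. Within each group the choroid plexus level was also lowest on replicate 1, at 11.03 in wild type and 11.76 in knockout. A list of striatal markers went the other way. It was highest on replicate 1, at 10.78 in wild type and 11.03 in knockout, against 10.39 to 10.41 on the other 4 arrays. Knockout replicates 2 and 3 were also the arrays with the highest choroid plexus levels (12.61 and 12.38, against 12.07 or less on the other 4) and the highest meningeal levels (11.46 and 11.30, against 10.97 or less). The endothelial and mural list was also highest on them, at 11.873 and 12.111 against 11.869 or less, and 6 of its 6 markers were higher on average in knockout. The part of these in the subunit values was not tested. The interneuron list was 13.38 and 13.42 on those 2 arrays and 13.42 to 13.54 on the other 4.

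**Figure D3:**
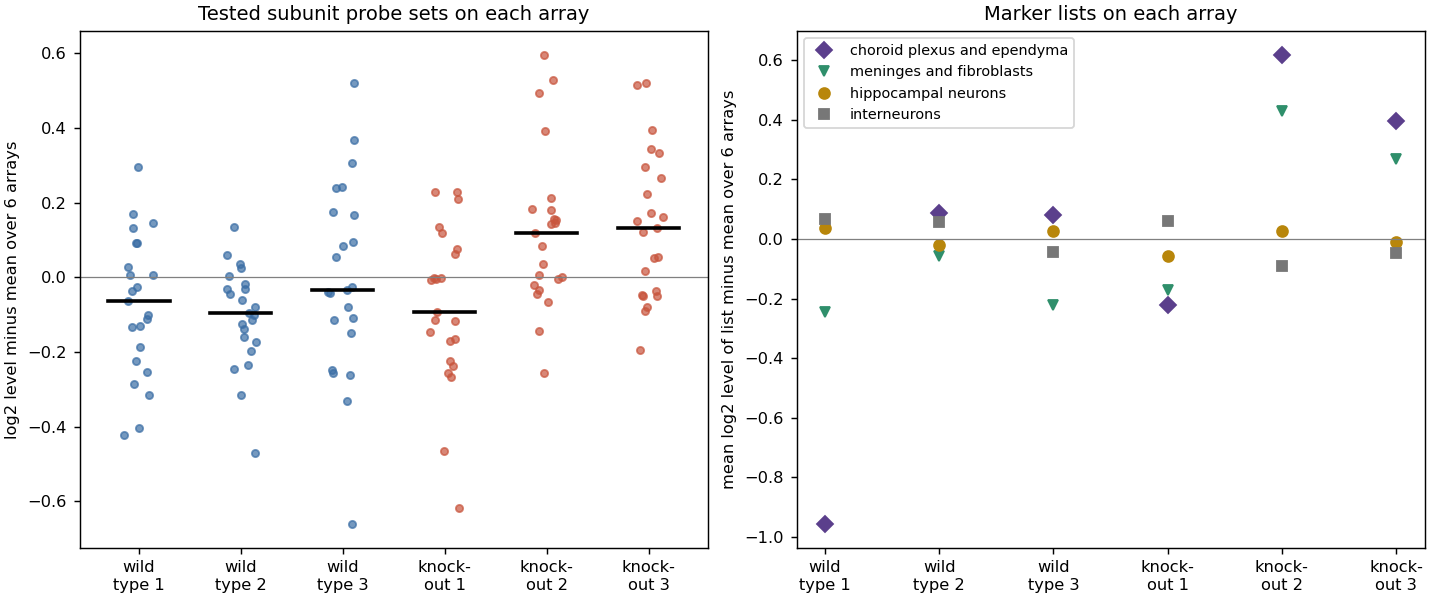
On the left, points are the 23 tested subunit probe sets on each array, as log2 level minus the probe set's mean over 6 arrays, and bars are medians. On the right, points are mean log2 levels of 4 marker lists relative to their mean over the arrays; knockout replicates 2 and 3 have the highest subunit medians, 0.12 and 0.13, and the highest choroid plexus and meningeal levels.

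With 1 array left out in turn, 0 of the 23 probe sets passed in any of the 6 fits. The sign of the change turned in at least 1 of these fits for 7 probe sets, all of which had a change within 0.09 of 0 with all arrays. The changes of Cacna1a, Cacnb4 and the leading probe sets of Cacna1c and Cacna1d stayed above 0. That of 1421297_a_at (Cacna1c) ran from 0.24 to 0.37 and that of 1427974_s_at (Cacna1d) from 0.20 to 0.47. Cacna1g stayed below 0, from -0.22 to -0.05.

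**Figure D4:**
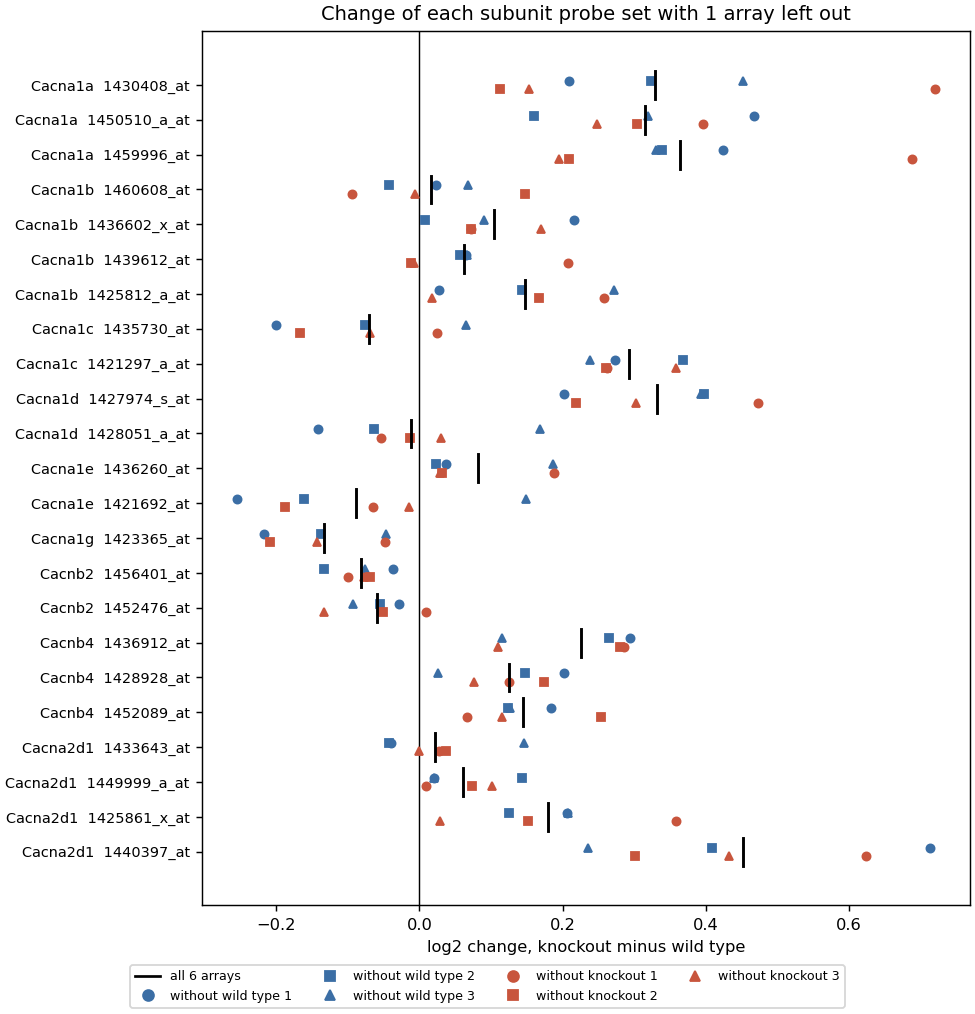
For each tested subunit probe set, symbols show the log2 change (knockout minus wild type) with 1 array left out, coloured by the group of that array, and the black line the change with all 6. The points farthest from their line are those of Cacna1a without knockout replicate 1, at 0.72 and 0.69.

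Other calcium genes were taken from 4 lists, each gene represented by its brightest tested probe set; by that rule 0.016% of 12493 genes passed, 10.5% had groups that did not overlap (5.34% higher and 5.12% lower in knockout), 4.75% had an unadjusted p under 0.05, 50.1% had a change above 0 and the median change was 0.0003. No gene of the 4 lists passed. Of 17 other channel subunit genes, 12 were tested: 0 passed in either direction (1 at an unadjusted p under 0.05 in limma), 3 were above 0 and 9 below, the median was -0.13, and 2 had groups that did not overlap, both lower in knockout. These were Cacng6, a dim gamma subunit gene (mean intensity 469 ± 83.5 in wild type and 252 ± 98.5 in knockout, SD, n = 3, log2 change -0.90), and Cacng7, a gamma subunit gene whose product also modulates AMPA receptors (2165 ± 133 and 1714 ± 361, SD, n = 3, log2 change -0.36). The other probe set of Cacng6, 1425730_at, lay below the level filter and was not tested. It read 136, 85 and 89 in wild type and 106, 27 and 468 in knockout. The other tested probe set of Cacng7 had a log2 change of 0.01. The T-type gene Cacna1h had -0.11 and the alpha2delta genes Cacna2d2 and Cacna2d3 -0.04 and 0.02.

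Of 27 channel regulators and binding partners, 20 were tested: 0 passed in either direction (1 at an unadjusted p under 0.05 in limma), 6 were above 0 and 14 below, and the median was -0.06. Bsn, which encodes the active zone scaffold Bassoon, was the 1 gene of this list with groups that did not overlap, at 14798, 12995 and 14099 in wild type and 12533, 11781 and 10718 in knockout (log2 change -0.26, limma unadjusted p = 0.0118, adjusted p = 0.988). Its second probe set changed by -0.29 and a dim one by 0.38. Gnao1, which encodes the alpha subunit of the G protein Go, had -0.16 and a dimmer probe set 0.03. The Rab3-interacting genes Rims1 and Rims2, whose products hold channels at the active zone, had 0.04 and -0.17.

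Of 18 calcium store and calcium-activated channel genes, 15 were tested: 0 passed in either direction (2 at an unadjusted p under 0.05 in limma), 8 were above 0 and 7 below, the median was 0.02, and 2 had groups that did not overlap, 1 higher and 1 lower in knockout. Kcnma1, the pore gene of the BK potassium channel that opens with calcium and depolarization, read 7471, 8664 and 9762 in wild type and 10259, 9908 and 10084 in knockout at its brightest probe set, without overlap (log2 change 0.23, limma unadjusted p = 0.041, adjusted p = 0.988). A dimmer probe set, 1424848_at, read 1250, 1174 and 1104 in wild type and 1683, 2089 and 1998 in knockout, also without overlap (log2 change 0.70, limma unadjusted p = 0.00187, adjusted p = 0.988), and 2 others had -0.12 and 0.48. Kcnn1, an SK potassium channel gene, was the lower one, at 1065, 1082 and 1098 in wild type and 814, 789 and 950.3 in knockout (log2 change -0.34, limma unadjusted p = 0.129, adjusted p = 0.988). Hpca, the neuronal calcium sensor hippocalcin, had -0.23 at its brightest probe set and -0.17 at its other, with overlapping groups.

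Of 16 calcium pump, exchanger and buffer genes, 15 were tested: 0 passed in either direction (3 at an unadjusted p under 0.05 in limma), 7 were above 0 and 8 below, the median was -0.06, and 2 had groups that did not overlap, both lower in knockout. Slc8a2, a sodium-calcium exchanger gene, read 4568, 4029 and 4371 in wild type and 3711, 2698 and 2450 in knockout, without overlap (log2 change -0.57, limma unadjusted p = 0.00336, adjusted p = 0.988), and its other probe set changed by -0.24. The other gene without overlap was Slc8a3, also an exchanger gene (log2 change -0.36). Slc8a1, another exchanger gene, had a change of 0.29 at its brightest probe set with overlapping groups, 0.05 at the next and -0.36 at a dimmer one. The exchanger genes' probe sets thus did not share a direction.

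**Figure D5:**
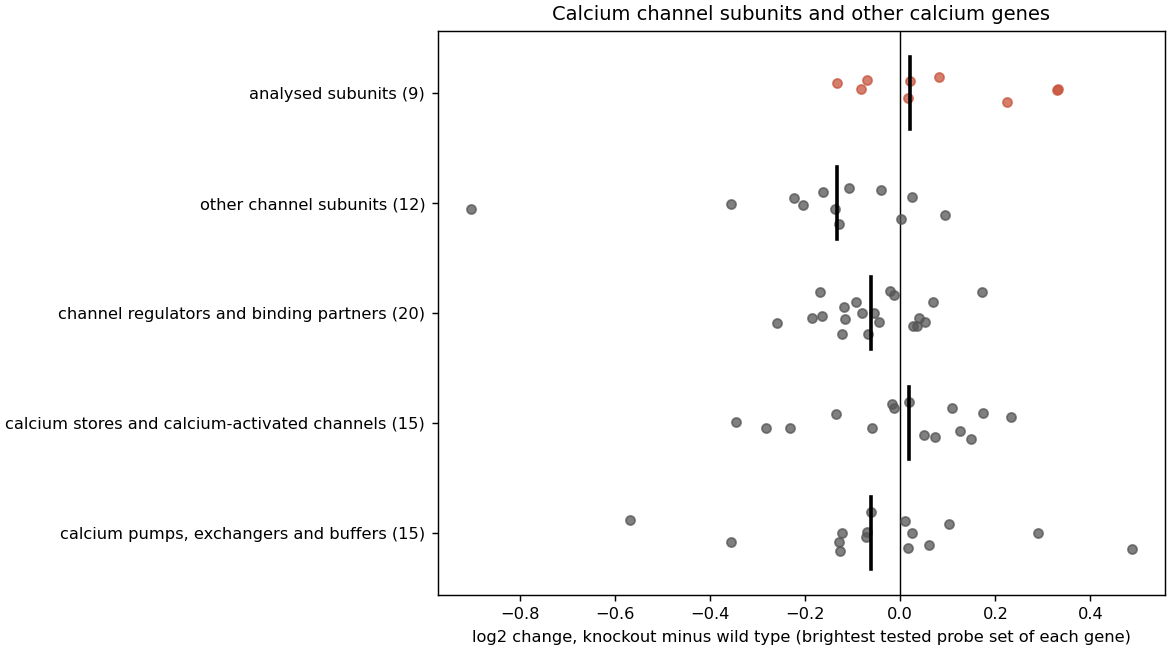
Points are genes, each by the log2 change (knockout minus wild type) of its brightest tested probe set, in the analysed subunits and in 4 lists of other calcium genes with the number tested in brackets; black bars are medians. The medians lie between -0.13 and 0.02, and the lowest point is Cacng6 at -0.90.

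Cacnb3, which was not analysed here, lies on chromosome 15, as Ppp1r1a does, with 84 measured genes between them in RefSeq order (GRCm38.p6). Of the 5 measured genes on each side of it, 0 of 10 passed (0 at an unadjusted p under 0.05 in limma), 5 were above 0 and 5 below, the median change was -0.03, and all 10 had overlapping groups. Over 12493 genes by their brightest probe set, 0.016% passed, 4.75% had an unadjusted p under 0.05 and 10.5% had groups that did not overlap. At these shares few of 10 genes would be counted, so the counts are not a result about the region. They cover these 10 genes only, and the other measured genes between Cacnb3 and Ppp1r1a were not summarised. The neighbours on the far side from Ppp1r1a were Ccdc184 (-0.25), H1f7 (-0.17), Kansl2 (-0.07), Ccnt1 (-0.11) and Adcy6 (0.18), an adenylyl cyclase gene. Those on the near side were Ddx23 (0.27), Rnd1 (0.02), Ccdc65 (0.29), Fkbp11 (0.13) and Arf3 (-0.17).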

How the data were processed

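The authors' deposited table holds 1 linear intensity value per probe set and array. No value was 0 or lower, and trimming 2% from either end left a mean of 2500 for each array, so the deposited scale was kept; which software made it is not given in the sources. The platform annotation gave 1 symbol for 34958 probe sets, several for 932 and none for 9211. Values were transformed as log2(intensity + 16). After removal of 64 control probe sets and of the dimmest 40% by mean level, 26999 were tested with limma 3.58.1 in R 4.3.3 (genotype as the sole term, eBayes with trend on intensity, two-sided, Benjamini-Hochberg over all tested, threshold 0.05), after the fit was tested on simulated data. Precision is limited by the number of arrays, and detection calls were not used.

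The subunits and gene lists were chosen with earlier results of these data known. Named by rule were the subunits, Ppp1r1a, other probe sets that passed, the 5 measured genes on each side of Cacnb3, and the 2 genes with the smallest p of each list; other genes were named after their values were seen. The planned Cacnb3 comparison was not run. Tried in turn were a lower and a higher pseudocount, weaker and stricter filters, rescaled arrays, a variance model without trend, array weights, a replicate block and left-out arrays. No label pairs the arrays, so the numbers were not taken as pairs. Deviations of same-numbered arrays from their group means correlated at 0.24, 0.054 and 0.0998. Whether same-numbered arrays share a source of variation was not tested.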

Additional observations from a re-analysis of the deposited data

How the results depend on the processing

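No subunit probe set passed in the 16 alternatives: 0 were called under pseudocounts of 1 and 64, with no filter or the lowest 60% left out, with quantile normalization or median centring, without an intensity trend, with array weights, with the replicate block and with arrays left out, where the lowest limma adjusted p was 0.242. In 365 comparisons of single subunit probe sets 365 kept their side of the threshold, and 20 changed sign, at 8 probe sets. With the replicate block, though no label pairs the samples, the lowest limma adjusted p of a subunit was 0.877, and 11 probe sets were called over the whole table. That count was 1 without an intensity trend and 3 to 14 with arrays left out (5 without knockout replicate 1, 14 without replicate 1 of both groups), against 3 with all arrays; the cause was not tested. Leaving out 1 array, the median subunit change ran from 0.03 without knockout replicate 3 to 0.15 without wild-type replicate 3; it was 0.07 with the lowest 60% left out, 0.09 with median centring and 0.02 with the brightest probe set of each gene. The Ppp1r1a change ran from -5.06 to -4.73 over all alternatives and stayed called. Dim probe sets limit what can be seen: the SE reached 0.40 at Cacna2d1 1440397_at.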

Other observations

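Genes of related subunits, singled out after their values were seen, showed the following. Cacnb1, the remaining beta subunit gene, had changes below 0 at 4 of 4 probe sets: -0.44 at 1451834_at, -0.34 at 1425777_at, -0.27 at 1426108_s_at and -0.22 at 1440940_at. At 1451834_at the arrays read 2374, 1803 and 1912 in wild type and 1541, 1701 and 1244 in knockout, without overlap, and at the other 3 probe sets the groups overlapped; the lowest unadjusted p was 0.035 and the adjusted p 0.988 (limma). All 4 probe sets had the opposite sign to the 3 of Cacnb4, and the difference between the 2 genes was not tested.

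Cacng2, which encodes the AMPA receptor auxiliary protein stargazin, had a dim probe set, 1453363_at, at 456, 322 and 263 in wild type and 608, 1241 and 1175 in knockout (log2 change 1.46, SE 0.36, limma unadjusted p = 0.00173, adjusted p = 0.988). Its brighter probe sets, 1420596_at and 1440210_at, had changes of -0.14 and 0.12 with overlapping groups. Slc8a3, a sodium-calcium exchanger gene, had a change of -0.36 at 1440962_at without overlap (limma unadjusted p = 0.0261, adjusted p = 0.988) and of 0.28 at a dim probe set.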
